A study of Canis lupus familiaris with 9 samples.

Results

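The ZNF genes examined here are named for their zinc fingers, short protein folds that hold a zinc ion and in most of these proteins contact DNA. Members were chosen by symbol and by level: every row whose gene symbol is ZNF followed by a number was taken if 3 or more of the 9 libraries held 10 or more normalised reads for it. This gave 232 members of 251 such rows, out of 15977 features that passed the same level and 28008 in all. Of the members, 219 have a symbol of ZNF and a number only, and 13 have a further letter, such as ZNF385A. They carry 231 distinct symbols, because ZNF385C stands on 2 rows. The rows left out numbered 19, of which 1 had no reads in any library. By the third highest of the 9 values, the members nearest the limit were ZNF35 at 16.7, ZNF704 at 13.8 and ZNF501 at 11.9 normalised reads, and the nearest rows outside it were ZNF285 at 9.46 and ZNF214 and ZNF549 at 8.33 normalised reads. These levels helped to choose the members and are a description. Of the 232, 195 reached 10 in all 9 libraries, 7 qualified only through lymphomas, and none qualified only through controls.

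Most ZNF proteins are DNA-binding transcription factors with arrays of C2H2 fingers, and many mammalian ones carry a KRAB domain next to the array. The KRAB domain recruits TRIM28 (KAP1), which brings the histone methyltransferase SETDB1, HP1 proteins and histone deacetylases, so that the bound DNA is packed into silent chromatin. Many of these genes lie in clusters of tandem copies and repress transposable elements in human and mouse cells. Other members lack a KRAB domain and act in lineage choice, RNA processing or chromatin looping. Tandem copies can resemble one another closely, so that reads may be split between them, and values of single KRAB members are uncertain in that respect.

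The study sequenced messenger RNA from 9 dog samples and asked how CD4+ peripheral T-cell lymphoma (PTCL), a cancer of mature helper T cells, differs from normal CD4+ T cells. The 3 Boxer lymphomas came, in replicate order, from a castrated male of 6 years, a spayed female of 8 years and a castrated male of 6 years. The 3 other-breed lymphomas came from a spayed female Cavalier King Charles Spaniel of 3 years, a spayed female Rhodesian Ridgeback of 4 years and a castrated male Collie of 11 years. The 3 controls were sorted CD4+ T cells of intact female hounds of 1 year. The labels state sorting for the controls and give neither the tissue nor any sorting for the lymphomas. Disease can therefore not be told apart from breed, age, neutering or sorting, and all males are among the lymphomas. Whether the samples of a group come from separate dogs is not stated in the labels, and the p-values speak only of the spread between samples.

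Libraries held 11710623 to 18488468 reads. Of 10 T cell markers 9 were measured, with summed levels of 65438 to 111683 normalised reads in lymphomas and 86686 to 89132 in controls. The gene CD4 was not analysed here. Markers of several other cell types were higher in lymphomas, though not in every lymphoma for each type. Summed stromal markers reached 3549, 2609 and 13596 normalised reads in Boxer lymphomas 1 to 3, 171, 105 and 9881 in other-breed lymphomas 1 to 3, and 19.0 to 31.5 in controls. Macrophage markers summed to 920.5 to 21280 against 130 to 201, dendritic cell markers to 88.3 to 325 against 20.6 to 40.7, and markers of dividing cells to 11259 to 31062 against 1626 to 1911. Endothelial markers, of which 3 of 6 passed as higher, summed to 1444, 2289.5 and 4154 in Boxer lymphomas, to 94.2, 100.2 and 6244 among the other breeds, and to 306 to 691 in the controls. The sums of other-breed lymphomas 1 and 2 lay below every control. Most of each control sum came from 1 gene, KDR. It had 626, 298 and 262 normalised reads in controls 1 to 3 and 49.4 and 27.6 in other-breed lymphomas 1 and 2. Neutrophil markers, 3 of 3 past the threshold as higher, summed to 94.8 to 367 in lymphomas and 9.08 to 32.4 in controls. Of 5 CD8 and killer markers 1 passed as higher. Their sums were 6228 in Boxer lymphoma 2, 1515 in other-breed lymphoma 1, 129 to 304 in the other lymphomas and 115 to 243 in controls. Of 7 B cell markers 0 passed in either direction, with sums of 498 to 6347 in lymphomas, highest in other-breed lymphoma 1, and 1670 to 1911 in controls. In such bulk samples, fewer cells of a type and less RNA per cell cannot be told apart.

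Of the ZNF genes that passed the test, more were lower than higher in lymphoma. In limma's test of the 6 lymphomas against the 3 controls, 59 members were lower and 17 higher at an adjusted p under 0.05, and 156 did not pass. The lower members were 25.4% of the family, against 15.7% of all 15977 features, and the higher ones 7.33%, against 19.4%. The median log2 fold change of the members was -0.30, a level of 0.811 times the control, and that of all features was 0.05. Of the 232 members, 150 (64.7%) had a fitted fold change below 0, against 48.2% of all features. Counts by overlap were similar. All 6 lymphomas lay below all 3 controls for 60 members (25.9%, against 17.2% of all features) and above them for 20 (8.62%, against 18.5%). Since the members were chosen with results of these samples known, no test of the family as a set is given.

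**Figure D1:**
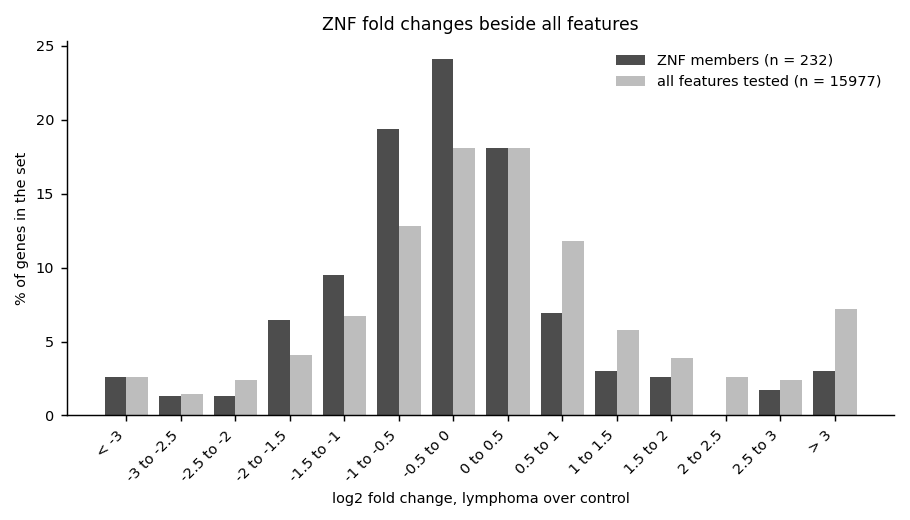
Share of genes (y axis, percent) in each interval of log2 fold change of 6 lymphomas over 3 controls (x axis) for the 232 ZNF members, dark bars, and all 15977 features tested, light bars. The members are concentrated just below 0, with 24.1% between -0.5 and 0 and 19.4% between -1 and -0.5, and 3.02% above 3, against 7.22% of all features.

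Among the 59 lower members, 38 were lower by more than 1 on the log2 scale, and among the 17 higher members 13 were higher by more than 1. Of the 17 higher members, 4 had every control under 10, so the level rule admitted them only through the lymphomas. Fold changes are on the scale of log2(value + 1), which understates the change of low genes. The lower count was sensitive to the 3 controls. It was 26 without control 1, 26 without control 2 and 32 without control 3, which is 11.2, 11.2 and 13.8% of members against 9.2, 8.32 and 9.18% of all features. A covariate for age left 12 lower (5.17%, against 5.54% of all features) and 6 higher (2.59%, against 6.56%). Among females alone 30 were lower (12.9%, against 12.9%) and 13 higher (5.6%, against 14%). In both of these fits the share of lower members was near that of all features, and the share of higher members was below it. The median log2 fold change of the members was -0.18 with age and -0.20 in females alone. For all features it was 0.007 and 0.05. The higher count was 28 with DESeq2 (12.1%, against 25.5% of all features). Voom with sample weights gave 89 lower (38.4%, against 24.9%) and 31 higher (13.4%, against 27.5%). Of the 28 members past the threshold that are named below by rule, 19 no longer passed with the age covariate, and their adjusted p from that fit is given with them. All controls were 1 year old and the lymphomas 3 to 11 years, so that fit separates age from disease poorly. The fold changes kept their direction in it and moved either way. ZNF547 went from -3.28 to -4.98 and ZNF423 from 4.64 to 2.16 on the log2 scale. Without other-breed lymphomas 1 and 2, whose stromal markers were lowest among the lymphomas, 68 were lower and 23 higher. These were 29.3% of members, against 16.8% of all features, and 9.91%, against 22.5%.

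The summed level of the 232 members averaged 106489 ± 13166 normalised reads in lymphomas (SD, n = 6) and 123022 ± 4867 in controls (SD, n = 3). As a share of all reads this was 0.698 ± 0.121% in lymphomas and 0.805 ± 0.0125% in controls. The lymphomas differed from each other more than the controls did. Boxer lymphomas 1 to 3 gave 0.801, 0.656 and 0.635% of their reads to the family, other-breed lymphomas 1 to 3 gave 0.642, 0.888 and 0.563%, and the controls 0.804, 0.793 and 0.818%. Other-breed lymphoma 2 lay above all controls, and the other lymphomas below all controls except Boxer lymphoma 1, which lay within their range. Other-breed lymphoma 2 had the highest value of the 6 lymphomas for 92 members. The same count over all features was not made, so whether it is particular to the family is not known.

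**Figure D2:**
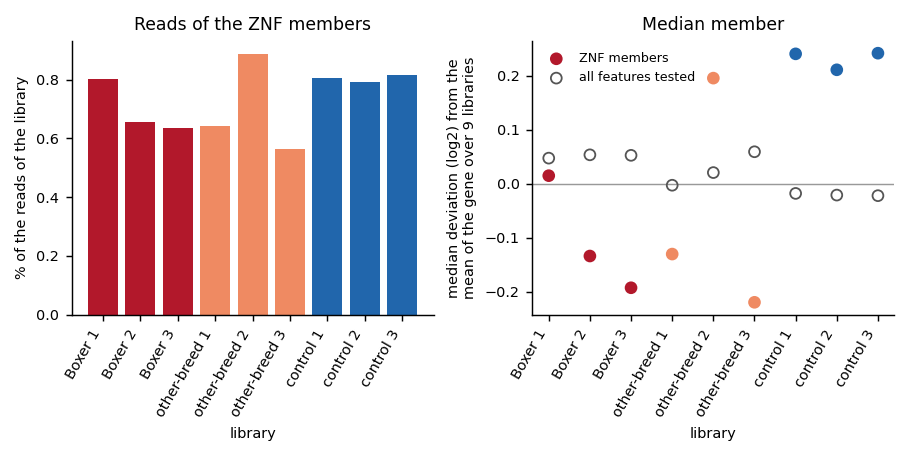
Left, the share of the reads of each library (y axis, percent) that fell on the 232 members, as bars from 0. Right, the median over genes of log2(value + 1) minus its mean over the 9 libraries, for members (filled) and all features (open). Members stand at 0.01, -0.13 and -0.19 in Boxer lymphomas 1 to 3, at -0.13, 0.20 and -0.22 in other-breed lymphomas 1 to 3 and at 0.24, 0.21 and 0.24 in the controls.

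The median member followed the same order as the shares in part. Its deviation was high in other-breed lymphoma 2 and in the controls, and lower in the other 5 lymphomas. For a single member, the median SD on the log2 scale was 0.46 among the 6 lymphomas and 0.21 among the 3 controls. For all features these medians were 0.56 and 0.25.

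The 10 largest decreases without overlap between the groups included several KRAB genes. ZNF536, a repressor of neuronal differentiation in mouse, had 0, 14.2 and 4.16 normalised reads in Boxer lymphomas 1 to 3, 31.8, 0 and 5.31 in other-breed lymphomas 1 to 3 and 113, 186 and 123 in controls 1 to 3. Its log2 fold change was -4.78 ± 1.09 (SE, limma adjusted p = 0.00783). ZNF215, imprinted in human, had 0.850, 0 and 9.37 in Boxer lymphomas, 4.71, 14.98 and 5.31 in other-breed lymphomas and 131, 186 and 79.6 in controls (log2 fold change -4.74 ± 0.88, SE, limma adjusted p = 0.0029). For both genes every lymphoma lay below every control. With age as a covariate neither passed, at a limma adjusted p of 0.0935 for ZNF536 and 0.0914 for ZNF215.

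ZNF550, a KRAB member, had 16.99, 0.948 and 2.08 normalised reads in Boxer lymphomas, 0, 0 and 4.25 in other-breed lymphomas and 84.6, 38.8 and 54.6 in controls (log2 fold change -4.32 ± 0.93, SE, limma adjusted p = 0.00607). ZNF548, also a KRAB member, had 260.0, 21.8 and 24.99 in Boxer lymphomas, 10.6, 13.4 and 21.2 in other-breed lymphomas and 337, 292 and 289 in controls (log2 fold change -3.41 ± 0.84, SE, limma adjusted p = 0.0113). Boxer lymphoma 1 kept ZNF548 near the controls and the other 5 lymphomas did not. Without that lymphoma the log2 fold change of ZNF548 was -4.05, and edgeR on the recovered reads gave it an adjusted p of 0.077. ZNF547, a further KRAB member, had 60.3, 6.64 and 2.08 in Boxer lymphomas, 1.18, 22.9 and 41.4 in other-breed lymphomas and 120.1, 116 and 115 in controls (log2 fold change -3.28 ± 1.05, SE, limma adjusted p = 0.0342). All 6 lymphomas were below the controls, and the lymphomas spread widely. The call for ZNF547 ended without any 1 of the 3 controls, with limma adjusted p of 0.0978 to 0.102, and without Boxer lymphoma 2 or 3, at 0.0549 to 0.0578. The age covariate also ended the calls of ZNF548 and ZNF547, at 0.0912 and 0.0615, and not that of ZNF550.

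ZNF296, a partner of KLF4 in mouse embryonic stem cells, had 17.8, 22.8 and 13.5 normalised reads in Boxer lymphomas, 4.71, 12.6 and 12.7 in other-breed lymphomas and 83.3, 119 and 147 in controls (log2 fold change -3.05 ± 0.52, SE, limma adjusted p = 0.00184). All 6 lymphomas lay below the controls, and other-breed lymphoma 1 was lowest. ZNF677, reported to be silenced by promoter methylation in human tumours, had 7.65, 90.1 and 57.3 in Boxer lymphomas, 11.8, 21.3 and 25.5 in other-breed lymphomas and 222, 175 and 132 in controls (log2 fold change -2.71 ± 0.71, SE, limma adjusted p = 0.0147). Its call ended without control 1 or control 2, with limma adjusted p of 0.0591 to 0.0664, and with the age covariate, at 0.0543.

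ZNF205 had 4.25, 11.4 and 14.6 normalised reads in Boxer lymphomas, 16.5, 15.8 and 13.8 in other-breed lymphomas and 49.1, 99.1 and 63.9 in controls (log2 fold change -2.43 ± 0.53, SE, limma adjusted p = 0.00615). ZNF514 had 94.3, 171 and 101 in Boxer lymphomas, 95.3, 181 and 95.5 in other-breed lymphomas and 542, 411 and 337 in controls (log2 fold change -1.83 ± 0.31, SE, limma adjusted p = 0.00178). The groups did not overlap for either. ZNF483, at 0.850, 4.74 and 5.21 in Boxer lymphomas, 1.18, 11.04 and 9.55 in other-breed lymphomas and 19.1, 20.6 and 28.7 in controls, was a borderline case (log2 fold change -2.19 ± 0.74, SE, limma adjusted p = 0.041). Its call ended without any 1 of the 3 controls, any 1 of the 3 Boxer lymphomas or other-breed lymphoma 1, with limma adjusted p of 0.0553 to 0.134. With the age covariate the adjusted p was 0.105 for ZNF205, 0.0505 for ZNF514 and 0.0988 for ZNF483.

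**Figure D3:**
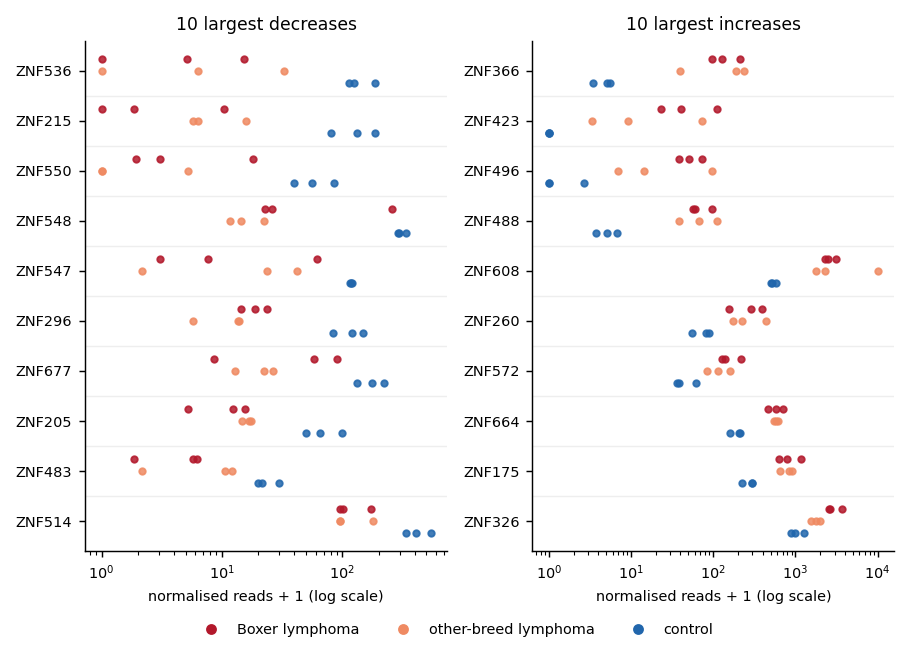
Normalised reads plus 1 (x axis, log scale) in each library for the 10 members with the largest decrease (left) and the 10 with the largest increase (right) among those that passed the test without overlap and averaged at least 20 normalised reads in the higher group. Each point is 1 library. For all 20 members the lymphomas lie wholly on 1 side of the controls, with ZNF548 in Boxer lymphoma 1 and ZNF608 in other-breed lymphoma 2 apart from the other lymphomas.

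Of 33 ZNF genes listed for a known role, 28 were members, 2 fell under the level and 3 were not analysed here. Of the 28, 6 were lower (21.4%, against 15.7% of all features) and 5 higher (17.9%, against 19.4%), which in a list of this size is near the background. ZNF331, an imprinted KRAB gene rearranged in human thyroid adenomas, had 313, 197 and 209 normalised reads in Boxer lymphomas, 112, 304 and 307 in other-breed lymphomas and 712, 686 and 697 in controls (log2 fold change -1.62 ± 0.32, SE, limma adjusted p = 0.00401). ZNF217, a co-repressor component amplified in human breast cancer, had 3289.5, 2049.7 and 2017 in Boxer lymphomas, 2687, 1907 and 2254 in other-breed lymphomas and 4678, 4090.0 and 3745 in controls (log2 fold change -0.84 ± 0.19, SE, limma adjusted p = 0.00747). The groups did not overlap for either gene, and the controls varied little. The age covariate ended the call of ZNF217, at a limma adjusted p of 0.138.

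The other 4 decreases in this list were smaller, and each call ended when single libraries were left out. ZNF143, a promoter factor that helps to anchor chromatin loops, changed by -0.63 ± 0.22 (SE, limma adjusted p = 0.0452), and its paralogue ZNF76 by -1.11 ± 0.37 (SE, limma adjusted p = 0.041). Lymphomas and controls overlapped for both. ZNF592, which binds chromatin readers together with ZNF687 and ZNF532 in human cells, changed by -0.67 ± 0.22 (SE, limma adjusted p = 0.0382). ZNF445, which maintains imprints in human and mouse, changed by -0.52 ± 0.16 (SE, limma adjusted p = 0.032). Without any 1 of the 3 controls, the limma adjusted p was 0.083 to 0.164 for ZNF143, 0.105 to 0.123 for ZNF76, 0.0822 to 0.13 for ZNF592 and 0.0904 to 0.101 for ZNF445. Leaving out single lymphomas also ended these calls. These were any but Boxer lymphoma 2 for ZNF143 (0.0531 to 0.0766), each Boxer lymphoma and other-breed lymphoma 1 for ZNF76 (0.0555 to 0.0656), Boxer lymphoma 3 and other-breed lymphomas 2 and 3 for ZNF592 (0.0505 to 0.0668), and other-breed lymphoma 1 for ZNF445 (0.0526). With the age covariate none of the 4 passed, at 0.216 for ZNF143, 0.252 for ZNF76, 0.0551 for ZNF592 and 0.103 for ZNF445. ZNF687 did not pass, at -0.95 ± 0.34 (SE, limma adjusted p = 0.0515). It passed in 6 of 23 alternative fits, among them DESeq2 and voom with sample weights.

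The increases were fewer. ZNF608, which in mouse thymocytes represses the Rag recombinase genes (as Zfp608), had 2505, 2293 and 3151 normalised reads in Boxer lymphomas, 2315, 10092 and 1798 in other-breed lymphomas and 516, 499 and 572 in controls (log2 fold change 2.51 ± 0.45, SE, limma adjusted p = 0.00242). All 6 lymphomas were above the controls, and other-breed lymphoma 2 was far above the other 5. ZNF326, a component of the DBIRD complex that couples transcription to splicing, had 3724, 2584 and 2631 in Boxer lymphomas, 1565, 1758 and 1969 in other-breed lymphomas and 1275, 979 and 878 in controls (log2 fold change 1.14 ± 0.26, SE, limma adjusted p = 0.00842). ZNF318, which in mouse B cells is needed for the transcript of the IgD heavy chain, had 2792, 3318 and 2065 in Boxer lymphomas, 2641, 1887 and 2419 in other-breed lymphomas and 1181, 1306 and 1419 in controls (log2 fold change 0.93 ± 0.19, SE, limma adjusted p = 0.00416). Neither gene showed overlap between lymphomas and controls. With the age covariate the limma adjusted p was 0.179 for ZNF326 and 0.116 for ZNF318.

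ZNF664 gave the smallest adjusted p of any member. It had 704, 459 and 575 normalised reads in Boxer lymphomas, 587, 612 and 552 in other-breed lymphomas and 209, 160.2 and 205 in controls (log2 fold change 1.60 ± 0.19, SE, limma adjusted p = 2.47e-04). ZNF175, a KRAB gene known from human macrophages infected with HIV, had 795, 639 and 1156 in Boxer lymphomas, 903, 826 and 646 in other-breed lymphomas and 222, 297 and 294 in controls (log2 fold change 1.59 ± 0.22, SE, limma adjusted p = 5.78e-04). Both were well above the highest control in every lymphoma, and the lymphomas lay close together.

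ZNF260 had 389.9, 156 and 284 normalised reads in Boxer lymphomas, 172, 442 and 223 in other-breed lymphomas and 54.6, 81.7 and 87.1 in controls (log2 fold change 1.81 ± 0.37, SE, limma adjusted p = 0.005). ZNF572 had 217, 126 and 139.5 in Boxer lymphomas, 83.6, 157 and 115 in other-breed lymphomas and 61.4, 37.2 and 35.2 in controls (log2 fold change 1.61 ± 0.36, SE, limma adjusted p = 0.00715). The groups did not overlap for either, and the age covariate ended the call of ZNF572, at a limma adjusted p of 0.107. The remaining members past the threshold, which the rule for naming did not take and which are given for completeness, were ZNF385A, ZNF367, ZNF792, ZNF250 and ZNF330. ZNF385A changed by 2.75 ± 0.70 (SE, limma adjusted p = 0.013), with overlap between the groups. ZNF367, ZNF792, ZNF250 and ZNF330 had log2 fold changes of 1.06, 0.80, 0.73 and 0.57 without overlap.

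Switching on was called where every control was under 10 normalised reads and every lymphoma at or above 10. By this rule 2 members were on, ZNF366 and ZNF488 (0.862% of members, against 1.63% of all features). Both passed the level rule only through the lymphomas and had to be higher there, so their p-values and intervals are a description. ZNF366, known as DC-SCRIPT from human and mouse dendritic cells, had 95.2, 128 and 208 normalised reads in Boxer lymphomas, 38.8, 187 and 236 in other-breed lymphomas and 4.09, 2.48 and 4.63 in controls (log2 fold change 4.80 ± 0.58, SE, limma adjusted p = 3.12e-04). ZNF488, which in mouse promotes oligodendrocyte differentiation with OLIG2, had 95.2, 58.8 and 55.2 in Boxer lymphomas, 65.9, 110.4 and 37.1 in other-breed lymphomas and 4.09, 5.78 and 2.78 in controls (log2 fold change 3.73 ± 0.47, SE, limma adjusted p = 3.97e-04). In reads pooled over each group and scaled by the size factors, ZNF366 was 41.3-fold higher in lymphomas (939 reads against 11, exact 95% interval 23.0 to 83.0). ZNF488 was 17.0-fold higher (458 reads against 13, 9.86 to 32.2). These intervals cover counting error only. Dendritic cell and macrophage markers were higher in the same libraries, 4 of 4 and 9 of 10 genes past the threshold, and their part in the ZNF366 difference was not tested. By library, the dendritic cell markers summed to 169, 189 and 299.9 in Boxer lymphomas, 88.3, 325 and 289 in other-breed lymphomas and 24.6, 20.6 and 40.7 in controls. ZNF366 and these markers were both lowest among the lymphomas in other-breed lymphoma 1.

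A further 5 members were on in part, meaning that every control was under 10 and some lymphomas were not (2.16% of members, against 7.03% of all features). ZNF423, a partner of EBF1 and of SMAD proteins that marks adipocyte precursors in mouse, had 22.1, 39.8 and 110.4 normalised reads in Boxer lymphomas, 8.24, 2.37 and 71.1 in other-breed lymphomas and none in controls. Against 3 reads as the limit for the controls together, its pooled reads (251) were at least 40.5-fold higher in lymphomas (limma adjusted p = 0.00731, and 0.30 with the age covariate). ZNF521, a close relative that also binds EBF1, had 12.7, 32.2 and 77.05 in Boxer lymphomas, 1.18, 0.789 and 24.4 in other-breed lymphomas and 0, 0.826 and 0 in controls, and did not pass (limma adjusted p = 0.0529). It passed in 7 of 23 alternative fits, among them edgeR, DESeq2 and voom with sample weights. ZNF423 and ZNF521 were high in the 4 lymphomas with high stromal markers and low in other-breed lymphomas 1 and 2, where summed stromal markers were 171 and 105 normalised reads. Other markers split the lymphomas in the same way. Endothelial markers summed to 94.2 and 100.2 in those 2 and to 1444 to 6244 in the other 4. Macrophage markers summed to 920.5 and 3470, and to 6162 to 21280. The part of stromal, endothelial or macrophage cells was not tested. Of the 9 stromal markers 7 passed the test as higher.

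ZNF496, which binds the histone methyltransferase NSD1 in mouse, had 50.1, 36.97 and 71.8 normalised reads in Boxer lymphomas, 5.89, 13.4 and 96.6 in other-breed lymphomas and 0, 1.65 and 0 in controls (log2 fold change 4.59 ± 0.88, SE, limma adjusted p = 0.00346). The pooled ratio was 67.7 (280 reads against 2, 95% interval 18.6 to 562). With the age covariate ZNF496 had a limma adjusted p of 0.167. It too was lowest among the lymphomas in other-breed lymphomas 1 and 2. ZNF503, a repressor in the developing brain and mammary gland, had 79.9, 17.1 and 44.8 in Boxer lymphomas, 1.18, 169 and 20.2 in other-breed lymphomas and 5.46, 0 and 1.85 in controls. ZNF704 had 6.80, 9.48 and 15.6 in Boxer lymphomas, 0, 51.3 and 13.8 in other-breed lymphomas and 0, 1.65 and 0 in controls. Neither of these 2 passed (limma adjusted p = 0.0515 and 0.0631), and other-breed lymphoma 1 overlapped the controls for both. ZNF503 passed in 5 of 23 alternative fits, among them edgeR, DESeq2 and voom with sample weights. These 7 members, ZNF366 and ZNF488 included, entered the family only through the lymphomas, so they had to be higher there. Their p-values and pooled ratios are a description.

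No member was off, with every control at or above 10 and every lymphoma under 10, against 1.07% of all features. Off in part could not occur at that threshold, since a member needs 3 libraries at 10. At a threshold of 20, ZNF550, ZNF215 and ZNF205 were off (1.29% of members, against 1.25% of all features), which is near the background. ZNF483 was off in part (0.431%, against 1.69%), and the members on in part numbered 9 (3.88%, against 11.5%). At a threshold of 5, ZNF366 and ZNF496 were on (0.862%, against 1.6%) and 3 members were on in part (1.29%, against 3.68%). The following counts with 1 library left out were not made over all features. Without other-breed lymphoma 1 the members on numbered 4 and those on in part 3. Without control 1 those on in part numbered 9, the members off numbered 3 without other-breed lymphoma 2, and 1 without Boxer lymphoma 1.

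ZNF532, whose gene is fused to NUTM1 in some human NUT carcinomas, showed the largest fitted rise of all members. It had 1907, 1779 and 1108 normalised reads in Boxer lymphomas, 3.53, 2623 and 186 in other-breed lymphomas and 12.3, 1.65 and 8.33 in controls (log2 fold change 6.03 ± 1.78, SE, limma adjusted p = 0.0246). Other-breed lymphoma 1 lay within the control range and the other 5 lymphomas far above the highest control. Without other-breed lymphoma 1 the log2 fold change was 7.36. The call ended without any 1 of the 3 controls (limma adjusted p 0.0594 to 0.103) and with the age covariate (0.326). ZNF462, a chromatin regulator of neural development, had 511, 24.6 and 336 in Boxer lymphomas, 29.4, 0.789 and 243 in other-breed lymphomas and 16.4, 9.08 and 5.56 in controls and did not pass (limma adjusted p = 0.221). It passed in 3 of 23 alternative fits: DESeq2, without other-breed lymphoma 2, and without other-breed lymphomas 1 and 2. ZNF683, or HOBIT, a factor of tissue-resident T cells, had 46.7, 21.8 and 855 in Boxer lymphomas, 95.3, 606 and 29.7 in other-breed lymphomas and 80.5, 52.01 and 58.3 in controls. ZNF683 was far above the controls in Boxer lymphoma 3 and other-breed lymphoma 2 only, and did not pass (limma adjusted p = 0.612).

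**Figure D4:**
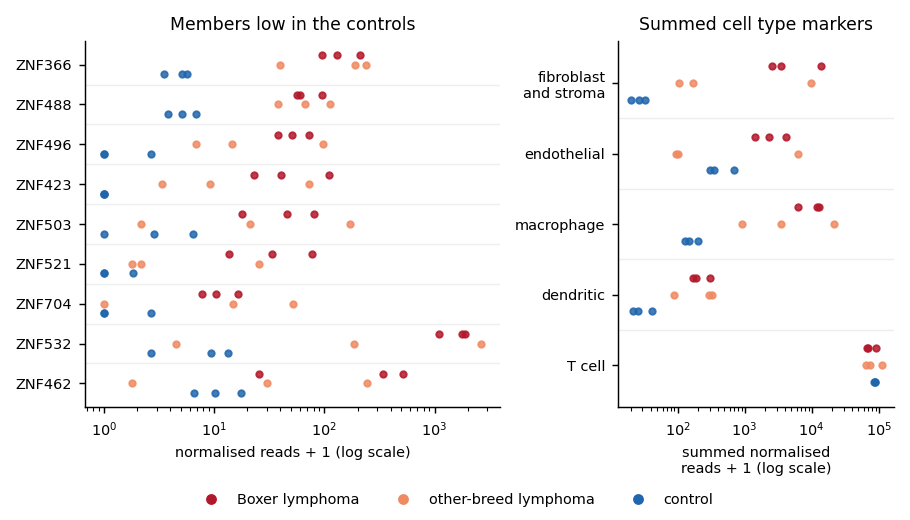
Left, normalised reads plus 1 (x axis, log scale) in each library for 9 members with low levels in controls. Right, summed normalised reads plus 1 of the marker genes of 5 cell types. Each point is 1 library. ZNF423, ZNF521 and ZNF496 are lowest among the lymphomas in other-breed lymphomas 1 and 2. So are the stromal (171 and 105), endothelial (94.2 and 100.2) and macrophage markers (920.5 and 3470). ZNF488 and ZNF366 lie above the controls in all 6 lymphomas.

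Some members were far below the controls in some lymphomas and not in others. For this count, chosen after the values were seen, a member was far below where a lymphoma was at least 8-fold under the lowest control and every control was at least 20. Of 211 members with such controls, 19 (9.0%) were far below in 1 or more lymphomas, against 9.18% of 12118 features. Other-breed lymphoma 1 accounted for most of them. It had 17 members far below (8.06%, against 4.45% of all features). Boxer lymphomas 1 to 3 had 5, 4 and 9 (2.37, 1.90 and 4.27%, against 3.80, 3.09 and 3.59%). Other-breed lymphomas 2 and 3 had 3 each (1.42%, against 3.67 and 1.89%). Members far below in 1 lymphoma only, whichever it was, numbered 8 (3.79%, against 4.41% of all features). In 7 of these 8 it was other-breed lymphoma 1, a count not made over all features. ZNF296, with all lymphomas low, was among the 7.

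The other 6 of these had higher levels in the remaining 5 lymphomas. ZNF229 had 261, 293 and 176 normalised reads in Boxer lymphomas, 7.06, 197 and 124 in other-breed lymphomas and 139, 194 and 87.1 in controls. ZNF239 had 184, 88.2 and 176 in Boxer lymphomas, 5.89, 193 and 114 in other-breed lymphomas and 145, 57.8 and 58.3 in controls. ZNF546 had 116, 92.9 and 113 in Boxer lymphomas, 9.42, 440.0 and 131 in other-breed lymphomas and 326, 303 and 265 in controls. Other-breed lymphoma 1 was the lowest library for each, by a wide margin. ZNF180, ZNF471 and ZNF235 showed the same, with 14.1, 3.53 and 25.9 normalised reads in other-breed lymphoma 1 and lowest controls of 121, 75.01 and 266. None of these 6 passed the test of lymphoma against control (limma adjusted p of 0.0785 to 0.925).

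ZNF711, a partner of the histone demethylase PHF8 mutated in human X-linked intellectual disability, split the lymphomas most sharply. It had 1141, 752 and 8.33 normalised reads in Boxer lymphomas, 4.71, 1278 and 671 in other-breed lymphomas and 463, 468 and 448 in controls. Boxer lymphoma 3 and other-breed lymphoma 1 were far below every control, and the other 4 lymphomas above every control. Its log2 fold change was accordingly imprecise, at -1.32 ± 1.78 (SE, limma adjusted p = 0.586).

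**Figure D5:**
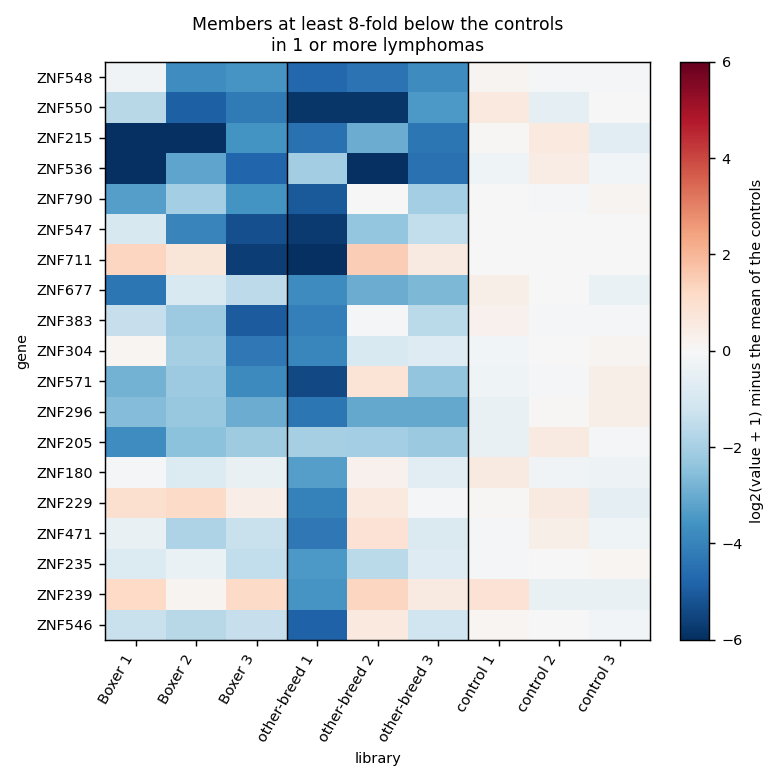
Log2(value + 1) minus the mean of the 3 controls (colour, limited to 6 either way) for the 19 members at least 8-fold below the lowest control in 1 or more lymphomas (rows), in each library (columns). Blue is below and red above the controls. The column of other-breed lymphoma 1 is blue in every row, 17 of them past the 8-fold limit, and ZNF711 is blue in 2 lymphomas and red in 4.

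By the order of genes in the RefSeq annotation of another dog assembly (UU_Cfam_GSD_1.0), 194 members could be placed. Those not placed, and so in neither count below, included ZNF536, ZNF548, ZNF547, ZNF677 and ZNF514 of the largest decreases. ZNF664 and ZNF260 of the largest increases were also not placed. Of the 194 placed, 45 lay in 12 runs of 3 or more members, with neighbours at most 3 places apart in the gene order. In the runs 12 members were lower (26.7%) and 1 higher (2.22%), with a median log2 fold change of -0.42. Among the 149 outside the runs, 38 were lower (25.5%) and 13 higher (8.72%), with a median of -0.27. Of all features 15.7% were lower and 19.4% higher. The run of ZNF180, ZNF229, ZNF235 and ZNF227 had a median deviation from the controls of -3.38 on the log2 scale in other-breed lymphoma 1, against -0.96 to 0.04 in the other 5 lymphomas. In that lymphoma ZNF180, ZNF229 and ZNF235 were far below the controls, and ZNF227 had 194 normalised reads, against 692, 377 and 458 in controls. The difference between members inside and outside runs was not tested.

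Set against the same 3 controls, the 3 Boxer lymphomas had 57 members lower and 25 higher. These were 24.6% of members against 16.9% of all features, and 10.8% against 21.7%. The 3 other-breed lymphomas had 36 lower and 13 higher, 15.5% against 12.5% and 5.60% against 14.2%. By overlap, 88 members were below and 31 above all controls in the Boxer lymphomas (37.9% against 25.1% of all features, and 13.4% against 28.9%). In the other-breed lymphomas 74 were below and 30 above (31.9% against 22.4%, and 12.9% against 24.5%). The median log2 fold change of the members was -0.34 in Boxer and -0.25 in other-breed lymphomas. Without other-breed lymphoma 2 the other-breed values were 58 lower (25%, against 14.8% of all features) and a median of -0.42. Without other-breed lymphoma 3, which left females only, 29 were lower (12.5%, against 12%) and 11 higher (4.74%, against 12%). The lower share was then near that of all features. Without controls 1, 2 and 3 in turn the other-breed counts were 19, 17 and 20 lower and 8, 5 and 6 higher. The lower shares were 8.19, 7.33 and 8.62%, against 5.44, 3.82 and 4.88% of all features. The higher shares were 3.45, 2.16 and 2.59%, against 7.99, 5.8 and 6.99%. The Boxer counts were 39, 33 and 34 lower and 18, 15 and 15 higher without each control in turn. Their lower shares were 16.8, 14.2 and 14.7%, against 11.2, 9.23 and 10% of all features. Their higher shares were 7.76, 6.47 and 6.47%, against 16.9, 13.9 and 14.8%. With the replicate number as a block, the other-breed count of higher members was 8 (3.45%, against 10%). With a covariate for age, Boxer lymphomas had 0 lower members (0.526% of all features) and 1 higher (0.431% of members, against 0.388%). Other-breed lymphomas had 22 lower (9.48%, against 7.39%) and 4 higher (1.72%, against 7.15%).

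No member passed the test of Boxer against other-breed lymphomas at an adjusted p under 0.05, by limma, edgeR or DESeq2. By limma and edgeR no feature of the whole series did (0% called). DESeq2 called 45 features higher (0.282%) and 66 lower (0.413%), with 0 members among them. At an unadjusted p under 0.05 limma gave 2 of 232 members, a count not made over all features. The smallest limma adjusted p of a member was 0.881, so the members named next are a description. ZNF326, given above, had the smallest p, with a log2 difference of 0.74 ± 0.21 (SE, 95% interval 0.24 to 1.25, unadjusted p in limma 0.0105, adjusted p = 0.881). ZNF7, a KRAB gene, had 2029.6, 2235 and 2067 normalised reads in Boxer lymphomas and 1455, 1524 and 1716 in other-breed lymphomas (0.43 ± 0.17, SE, 95% interval 0.04 to 0.83, unadjusted p in limma 0.0359, adjusted p = 0.881). For both genes all Boxer lymphomas were above all other-breed lymphomas.

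The next by p were ZNF706, ZNF521 and ZNF76. ZNF706, which acts against self-renewal in mouse embryonic stem cells, had 2064, 2756 and 1007 normalised reads in Boxer lymphomas and 1145, 878 and 946 in other-breed lymphomas (0.86 ± 0.37, SE, 95% interval -0.02 to 1.75, unadjusted p in limma 0.0545, adjusted p = 0.881). The log2 difference of ZNF521 was 2.83 ± 1.23 (SE, 95% interval -0.09 to 5.75, unadjusted p in limma 0.0554, adjusted p = 0.881), and that of ZNF76 -0.93 ± 0.41 (SE, 95% interval -1.89 to 0.03, unadjusted p in limma 0.0559, adjusted p = 0.881). The intervals are wide, so a failure to pass does not show that the lymphomas of both breed groups were alike. Over the family the median log2 difference was -0.06. It was 0.10 without other-breed lymphoma 2. In 9 members all Boxer lymphomas were above all other-breed lymphomas (3.88%, against 4.89% of all features) and in 4 below (1.72%, against 5.66%).

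Members near no change included ZNF770, ZNF791 and ZNF106, with log2 fold changes of lymphoma over control of 0.00 ± 0.21 (SE), -0.01 ± 0.40 (SE) and -0.01 ± 0.12 (SE). ZNF106, an RNA-binding protein, had 3493, 3462 and 3488 normalised reads in Boxer lymphomas, 3444, 3269.5 and 3353 in other-breed lymphomas and 3991, 3335 and 3081 in controls. Of the genes with a known role, the log2 ratio of ZNF384, fused in human B-cell leukaemia, was -0.25 ± 0.17 (SE, limma adjusted p = 0.287), and that of ZNF148, a regulator of p53 activity, -0.23 ± 0.18 (SE, limma adjusted p = 0.318). For ZNF335, needed for thymocyte maturation in mouse, it was -0.41 ± 0.18 (SE, limma adjusted p = 0.095). For ZNF10, the source of the KRAB domain used in synthetic repressors, it was 0.64 ± 0.41 (SE, limma adjusted p = 0.246). For ZNF598, a ubiquitin ligase that senses collided ribosomes, it was 0.32 ± 0.24 (SE, limma adjusted p = 0.305). None of these passed in the main test, and lymphomas overlapped controls for each. Among 23 alternative fits, ZNF335 passed in 2 and ZNF10 in 1. The remaining 7 members of that list (ZNF516, ZNF451, ZNF703, ZNF831, ZNF365, ZNF622 and ZNF24) did not pass either.

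Genes of the machinery that KRAB members recruit were called in both directions. Of 31 listed genes of this machinery 27 were measured, of which 9 were higher (33.3%, against 19.4% of all features) and 4 lower (14.8%, against 15.7%) in lymphomas, with a median log2 fold change of 0.16, against 0.05 for all features. TRIM28, the KRAB-binding scaffold, had 5289, 5402 and 5245 normalised reads in Boxer lymphomas, 5552, 4643 and 5169.8 in other-breed lymphomas and 2483, 3256 and 3299 in controls (0.80 ± 0.14, SE, limma adjusted p = 0.00197). SETDB1, the histone methyltransferase it brings in, had 801, 1470.4 and 1414 in Boxer lymphomas, 1587, 1235 and 1204 in other-breed lymphomas and 1841, 1913 and 1896 in controls (-0.58 ± 0.21, SE, limma adjusted p = 0.0483). TRIM28 was thus higher and SETDB1 lower in lymphomas, with SETDB1 close to the threshold. The calls of the machinery genes were not followed through the alternative fits.

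ATF7IP, the partner that stabilises SETDB1, changed by -1.22 ± 0.19 (SE, limma adjusted p = 0.00138), and its paralogue ATF7IP2 by 2.46 ± 0.45 (SE, limma adjusted p = 0.00262). HP1 proteins bind the methylated histone, and of their genes CBX1 changed by 1.74 ± 0.25 (SE, limma adjusted p = 8.16e-04), and CBX5 by 0.72 ± 0.25 (SE, limma adjusted p = 0.0467). UHRF1, which keeps DNA methylation through replication, had the largest rise of the list, at 2.98 ± 0.21 (SE, limma adjusted p = 2.35e-05). Of the deacetylase complex, HDAC2, CHD4, RBBP7 and RBBP4 were higher, with log2 fold changes of 1.34, 0.65, 0.63 and 0.61, and MTA2 was lower at -1.07. EHMT1, another histone methyltransferase, was lower at -0.61. Markers of dividing cells were higher in the same lymphomas, 6 of 6 past the threshold, and their part in these changes was not tested.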

How the data were processed

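The submitters' processing notes name the build CanFam3.1 and the tools TopHat2, HTSeq and DESeq2. Versions, strand setting and annotation are not given in the sources used here. The deposited files hold 1 signal value for a gene, which the authors obtained by scaling counts of reads with a size factor. All values were whole multiples of a single read, within a tolerance of 0.01 reads, and the factors equalled recomputed median-of-ratios factors, so whole reads were recovered. The files hold no coordinates, and no sequence or transcript length was used here.

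The members and the gene lists were chosen with earlier results of these data known. Features that reached 10 in 3 or more of 9 libraries (15977) entered every fit. The main test was limma 3.58.1 (R 4.3.3) on log2(value + 1) of the deposited signal, with a mean-variance trend and Benjamini-Hochberg adjustment over all 15977 features at a threshold of 0.05, and only the compared groups in each fit. It was used because the values are scaled, and edgeR 4.0.16 and DESeq2 1.42.0 on the recovered reads were alternatives. The Boxer and other-breed comparisons share their 3 controls, so no overlap between them is given.

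The members named are the 10 with the largest change each way that passed the test without overlap and averaged at least 20 normalised reads in the higher group, those switched on or off, the 5 with the smallest p between Boxer and other-breed lymphomas, those with a known role, and the 3 nearest 0. Members lost in single lymphomas were described after the values were seen. Pooled ratios use recovered reads with exact conditional intervals (95%), and 3 reads as the limit for a group at 0. The replicate numbers name dogs of different breeds and do not pair samples. Other alternatives were scalings, filters, pseudocounts, voom, a test against a fold of 1.5, age, females only, a replicate block and leaving out libraries. The fits were tested on simulated data.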

Additional observations from a re-analysis of the deposited data

Results flagged for a closer look

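In 3 cases 1 lymphoma stood apart from the other 5 by Dixon's test on the log2(value + 1) scale. The 53 values tested were the named members and 3 measures of the whole family, of which 3 were flagged, all of them named members. The family measures were its summed level, share of reads and median deviation, taken without that transformation. Chance flags about 1 in 20. ZNF608 was at 10092 normalised reads in other-breed lymphoma 2 and between 1798 and 3151 in the other lymphomas. ZNF548 was at 260.0 in Boxer lymphoma 1 and between 10.6 and 24.99 in the others. ZNF205 was at 4.25 in Boxer lymphoma 1 and between 11.4 and 16.5 in the others. Over all 232 members, 16 had such a lymphoma. Boxer lymphoma 1 was the low one for 5 members and other-breed lymphoma 2 the high one for 5. No named member had its Boxer and other-breed lymphomas wholly on opposite sides of the controls.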

How the results depend on the processing

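For lymphoma against control, the 17 higher members became 28 with DESeq2, 31 with voom and sample weights, 9 in a test against a fold change of 1.5 and 6 with age as a covariate, and 12 to 21 when 1 library was left out. Higher members were 12.1% with DESeq2 (25.5% of all features), 13.4% with voom (27.5%), 3.88% against a fold of 1.5 (8.8%) and 2.59% with age (6.56%). With 1 library left out they were 5.17 to 9.05% (11.9 to 20.5%). The 59 lower members became 89 with voom, 16 against a fold of 1.5, 12 with age and 30 in females alone, and 26 to 65 when 1 library was left out. Lower members were 38.4% with voom (24.9% of all features), 6.9% against a fold of 1.5 (5.42%), 5.17% with age (5.54%) and 12.9% in females alone (12.9%). With 1 library left out they were 11.2 to 28% (8.32 to 16.2%). The excess of lower calls over all features was thus not seen in the age and female-only fits. The median log2 fold change of the members stayed below 0 in every alternative run, at -0.18 with age and -0.20 in females alone. In Boxers the test against a fold of 1.5 gave 15 higher (6.47%, against 12.3% of all features) and 24 lower (10.3%, against 7.61%). The counts were 1 and 0 with age, and 15 to 27 and 33 to 64 with 1 library left out. In those last fits higher members were 6.47 to 11.6% (13.9 to 21.9% of all features). Lower members were 14.2 to 27.6% (9.23 to 18%). The Boxer median was -0.42 with upper-quartile scaling and -0.42 with age. In other breeds the test against a fold of 1.5 gave 6 higher (2.59%, against 5.43%) and 15 lower (6.47%, against 3.81%). The counts were 4 and 22 with age, and 5 to 18 and 17 to 58 with 1 library left out. In those last fits higher members were 2.16 to 7.76% (5.8 to 15.3% of all features). Lower members were 7.33 to 25% (3.82 to 14.8%). Without other-breed lymphomas 1 and 2, which left 1 other-breed lymphoma, the median was -0.47. Medians ran from -0.42 to -0.19 with 1 library left out. The Boxer against other-breed median was 0.12 without those 2 lymphomas, and -0.15 to 0.10 with 1 library left out. The cause of these shifts was not tested.

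The replicate block gave 17 higher and 51 lower members for all lymphomas, 23 and 52 for Boxers and 8 and 26 for other breeds. The higher shares were 7.33, 9.91 and 3.45%, against 17.2, 19.4 and 10% of all features. The lower shares were 22, 22.4 and 11.2%, against 13.5, 14.8 and 8.37%. Replicate numbers do not pair these dogs, and same-numbered samples had correlations of -0.14 to 0.10. Members on in part numbered 3 at a threshold of 5 (1.29%, against 3.68% of all features) and 9 at 20 (3.88%, against 11.5%). Members off numbered 3 at 20 (1.29%, against 1.25%) and members off in part 1 at 20 (0.431%, against 1.69%). With 1 library left out, members on ran from 2 to 4, on in part from 3 to 9 and off from 0 to 3. These last counts were not made over all features. The log2 ratio of the summed level, -0.21, ran from -0.27 to -0.17. The median of all features moved from 0.05 to -0.04 with upper-quartile scaling and to 0.13 with DESeq2. Of 28 named members past the threshold in lymphoma against control, 9 stayed past it in every alternative, 19 lost it with age as a covariate and none reversed. Of 25 named results that did not pass, those of Boxer against other-breed lymphomas included, 19 passed in no alternative. Directions that differed while passing in neither fit, 35 of 1198 cases, were not counted as reversed. A female-only fit was not run for Boxer comparisons, with 1 female Boxer lymphoma. Members near 10 normalised reads are limited by depth.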

Other observations

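Zinc finger genes outside the ZNF symbols gave the following counts in lymphoma against control, by the same limma test (background 19.4% higher and 15.7% lower). Of 34 ZBTB genes, which pair zinc fingers with a BTB domain, 4 were higher and 9 lower, with a median log2 fold change of -0.21. Of 15 ZSCAN genes 1 was higher and 3 lower (median -0.23), and of 4 ZKSCAN genes 0 were higher and 1 lower (median -0.38). Of 15 ZFP genes 1 was higher and 3 lower (median -0.65), and their summed level was 9573 to 17083 normalised reads in lymphomas and 25730 to 27805 in controls. Of 8 KLF genes, Krüppel-like factors, 1 was higher and 4 lower (median -1.48), and of 13 ZC3H genes, which mostly bind RNA, 1 was higher and 4 lower (median -0.53). The ZDHHC genes carry the letter Z in their symbol and encode palmitoyltransferases, not DNA-binding factors. Of 19 ZDHHC genes 7 were higher and 2 lower, with a median of 0.50.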
